A study of Homo sapiens with 6 samples.

Results

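Integrin subunit genes of epithelial cells were followed in SW480 colon cancer cells without and with induction of KIAA1199. They were picked from a list of Ensembl identifiers, with no measured value in the rule but with earlier results of these data known. The list comprised 5 alpha subunits (ITGA2, ITGA3, ITGA5, ITGA6 and ITGAV) and 5 beta subunits (ITGB1, ITGB4, ITGB5, ITGB6 and ITGB8). All 10 were present among the 26445 probe sets measured, each as 1 probe set named by an Ensembl gene identifier. SW480 is an established human colorectal cancer cell line. All cells of both groups carried a tetracycline repressor and a doxycycline-inducible KIAA1199 construct, and all were selected with blasticidin S and G418. They belonged to a single inducible clone, Clone 13. The labels give 50 ng/ml doxycycline for 48 h in the treatment text of all 6 samples, and this was taken to apply to the 3 samples labelled as induced. The study's methods give a range that starts at this dose. They cite earlier work in which doses of that range had no effect on transcript levels on microarrays. The uninduced group was the control. Each group held 3 arrays, 1 from each of 3 independent experiments. Cells with doxycycline but without the construct are not among these samples, so an effect of the drug and an effect of KIAA1199 cannot be told apart.

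Integrins are cell-surface adhesion receptors made of an alpha and a beta chain, which bind matrix proteins outside the cell and link them to the cytoskeleton inside it. The pairing decides the ligand. With ITGB1, ITGA2 forms a collagen receptor, ITGA3 and ITGA6 form laminin receptors, and ITGA5 forms the classical fibronectin receptor. ITGA6 also pairs with ITGB4, the laminin receptor of hemidesmosomes, the junctions that anchor epithelial cells to the basement membrane. ITGAV pairs with ITGB1, ITGB5, ITGB6 or ITGB8 and binds ligands that carry the RGD motif, such as vitronectin, fibronectin and latent TGF-beta. The study placed the ITGA6/ITGB4 complex among the membrane receptors of interest, and the comparison asks whether the transcripts of the subunits moved with induction.

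With doxycycline, 3 of the 10 subunits, ITGB4, ITGA3 and ITGA5, rose past an unadjusted p of 0.025 and a change of at least 1.2-fold in limma with the experiment as a block. These are the limits of the study, whose own test is a paired one. The study ran it on another set of features, transcript clusters, so the counts here are not the study's own calls. Run here on the deposited values, the methods' paired test called 2 of the 3 (ITGB4 and ITGA5), beside 2.18% of all probe sets. Limma without the block called 1 (ITGB4), beside 3.97%. The levels of ITGB4, ITGA3 and ITGA5 were 1.27, 1.27 and 1.21 times those of uninduced cells. None (0) of the other 7 passed the limits, and none fell past them. With the block, 5.83% of all probe sets passed the limits in either direction and 2.9% passed them as raised. An unadjusted p under 0.05 in limma was reached by 3 of 10 subunits, beside 12.3% of all probe sets. After Benjamini-Hochberg adjustment over all 26445 probe sets, no subunit passed an adjusted p of 0.05 in limma (0 of 10). Neither did any other probe set (0% of all). The smallest adjusted p of a subunit in limma, 0.35, was also the smallest of any probe set. ITGB4, ITGA3 and ITGA5 share this value with every probe set of smaller unadjusted p, so it does not rank them first. These p-values rest on 3 experiments. In limma they combine the spread of a subunit's own differences between experiments with a variance estimated over all probe sets.

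The 6 arrays had the same distribution of levels, and any pair of them correlated over all probe sets with an r between 0.984 and 0.989. The tables used here pair no Ensembl identifiers with symbols beyond the 10 subunits. The induction of KIAA1199, epithelial markers, markers of other cell types and the other genes of the adhesion pathway (matrix ligands, talin, kindlins, paxillin, focal adhesion kinase, hemidesmosome partners) were therefore not analysed here. In a bulk culture, more cells with a transcript and more transcript per cell cannot be told apart.

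**Figure D1:**
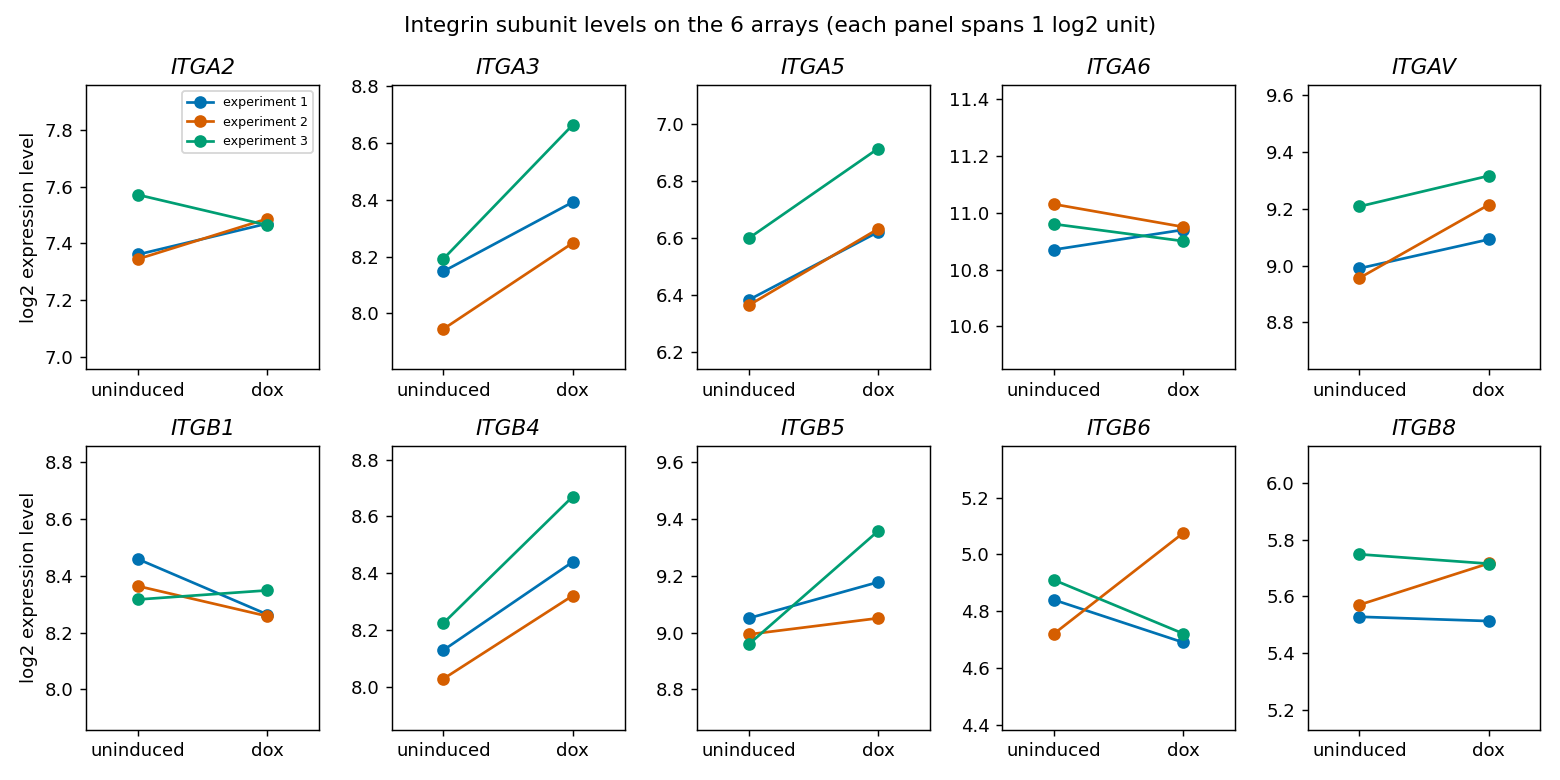
Log2 expression level (y axis) of each subunit on the 6 arrays, with the uninduced and the doxycycline (dox) array of an experiment joined by a line. Every panel spans 1 log2 unit; the lines of ITGA3, ITGA5 and ITGB4 all slope upward with groups that do not overlap, while those of ITGB6 cross.

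The laminin receptor subunit ITGB4 showed the largest change of the 10. ITGB4 (probe set ENSG00000132470_at) encodes the beta chain found in hemidesmosomes, which has an unusually long cytoplasmic tail that binds plectin. Its log2 level was 8.13, 8.03 and 8.22 in uninduced cells of experiments 1, 2 and 3, and 8.44, 8.32 and 8.67 with doxycycline. Every doxycycline array lay above every uninduced array. The mean went from 8.13 ± 0.098 (SD, n = 3) to 8.48 ± 0.18 (SD, n = 3), a log2 fold change of 0.35 (standard error 0.069, 95% confidence interval 0.16 to 0.54, unadjusted p = 0.0071 and adjusted p = 0.35 in limma). The 3 differences were 0.31, 0.29 and 0.45.

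ITGA3 (ENSG00000005884_at), the alpha chain of a laminin receptor of basement membranes, changed by nearly as much. Its log2 level was 8.15, 7.95 and 8.19 without doxycycline and 8.39, 8.25 and 8.66 with it. Here too the groups did not overlap, but only narrowly, since the lowest doxycycline array (experiment 2) was just above the highest uninduced array (experiment 3). The mean went from 8.10 ± 0.13 to 8.43 ± 0.21 (SD, n = 3 each), a log2 fold change of 0.34 (standard error 0.077, 95% confidence interval 0.13 to 0.55, unadjusted p = 0.012 and adjusted p = 0.35 in limma). The differences were 0.24, 0.30 and 0.47 in experiments 1, 2 and 3. The call was lost in limma without the block, with an unadjusted p of 0.038, and in the methods' paired test, which gave ITGA3 the same value of 0.038.

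ITGA6 (ENSG00000091409_at), the alpha partner of ITGB4, was not among the raised genes. Its log2 level was 10.87, 11.03 and 10.96 without doxycycline and 10.94, 10.95 and 10.90 with it. The doxycycline arrays lay within the range of the uninduced ones. The log2 fold change was -0.02 (standard error 0.068, unadjusted p = 0.75 in limma), and its 95% confidence interval, -0.21 to 0.17, corresponds to 0.863-fold to 1.12-fold. That interval leaves out a change of 1.2-fold or more upward. In signal, ITGA6 exceeded 99.5% of all probe sets, a position that reflects probe response as well as abundance.

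ITGA5 (ENSG00000161638_at), whose product with ITGB1 binds fibronectin, was the third raised subunit. Its log2 level was 6.38, 6.36 and 6.60 without doxycycline and 6.62, 6.63 and 6.92 with it. The groups did not overlap, although experiment 1 with doxycycline, at 6.62, was only slightly above experiment 3 without it, at 6.60. The log2 fold change was 0.27 (standard error 0.062, 95% confidence interval 0.10 to 0.45, unadjusted p = 0.011 and adjusted p = 0.35 in limma). The change was even across experiments, at 0.24, 0.27 and 0.32. ITGA5 lost its call in limma without the block, with an unadjusted p of 0.051, and kept it in the methods' paired test. The SD of these differences was 0.039, and only 6.72% of all probe sets had a smaller one. At 1.21-fold, ITGA5 was also the raised subunit closest to the 1.2-fold limit.

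The collagen receptor chain ITGA2 (ENSG00000164171_at) gave log2 levels of 7.36, 7.35 and 7.57 without doxycycline and 7.47, 7.49 and 7.46 with it. It was higher with doxycycline in experiments 1 and 2 and lower in experiment 3. Doxycycline and uninduced cells differed by a log2 fold change of 0.05 (standard error 0.081, unadjusted p = 0.59 in limma), with a 95% confidence interval from -0.18 to 0.27.

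ITGB1 (ENSG00000150093_at), the common beta partner of ITGA2, ITGA3, ITGA5, ITGA6 and ITGAV, had the lowest estimate of the 10. Its log2 level was 8.46, 8.36 and 8.32 in uninduced cells and 8.26, 8.26 and 8.35 with doxycycline. It was lower in experiments 1 and 2 and slightly higher in experiment 3, and the groups overlapped. The log2 fold change was -0.09 (standard error 0.076, 95% confidence interval -0.30 to 0.12, unadjusted p = 0.30 in limma).

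ITGAV and the beta chains that pair with it gave no call. ITGAV (ENSG00000138448_at), the alpha chain of these pairs, had log2 levels of 8.99, 8.96 and 9.21 without doxycycline and 9.09, 9.21 and 9.32 with it. It was higher in all 3 experiments, by 0.10, 0.26 and 0.11, but the groups overlapped because uninduced cells of experiment 3 lay above doxycycline cells of experiment 1. The log2 fold change was 0.16 (standard error 0.070, 95% confidence interval -0.04 to 0.35, unadjusted p = 0.089 in limma).

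ITGB5 (ENSG00000082781_at), the beta chain of a vitronectin receptor, had log2 levels of 9.05, 8.99 and 8.96 without doxycycline and 9.18, 9.05 and 9.36 with it. All 3 differences were positive, at 0.13, 0.06 and 0.40, and experiment 3 supplied most of the mean. This gave a log2 fold change of 0.19 (standard error 0.095, 95% confidence interval -0.07 to 0.46, unadjusted p = 0.11 in limma). The interval holds both no change and a change above 1.2-fold.

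ITGB6 (ENSG00000115221_at), the beta chain of an epithelial receptor that activates latent TGF-beta, had log2 levels of 4.84, 4.72 and 4.91 without doxycycline and 4.69, 5.08 and 4.72 with it. It was lower in experiments 1 and 3 and higher in experiment 2. These differences gave a log2 fold change of 0.01 with the widest interval of the 10, -0.38 to 0.39 (unadjusted p = 0.97 in limma). In signal it exceeded only 36.0% of all probe sets, the dimmest position among the subunits. The SD of its 3 differences was 0.30, and 79.1% of all probe sets had a smaller one. The deposited values carry no detection calls, so whether ITGB6 was detected is not known.

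ITGB8 (ENSG00000105855_at), the beta chain of another receptor of latent TGF-beta, had log2 levels of 5.53, 5.57 and 5.75 without doxycycline and 5.51, 5.72 and 5.72 with it. The groups overlapped almost completely. With all experiments, the log2 fold change was 0.03 (standard error 0.072, 95% confidence interval -0.17 to 0.23, unadjusted p = 0.67 in limma).

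**Figure D2:**
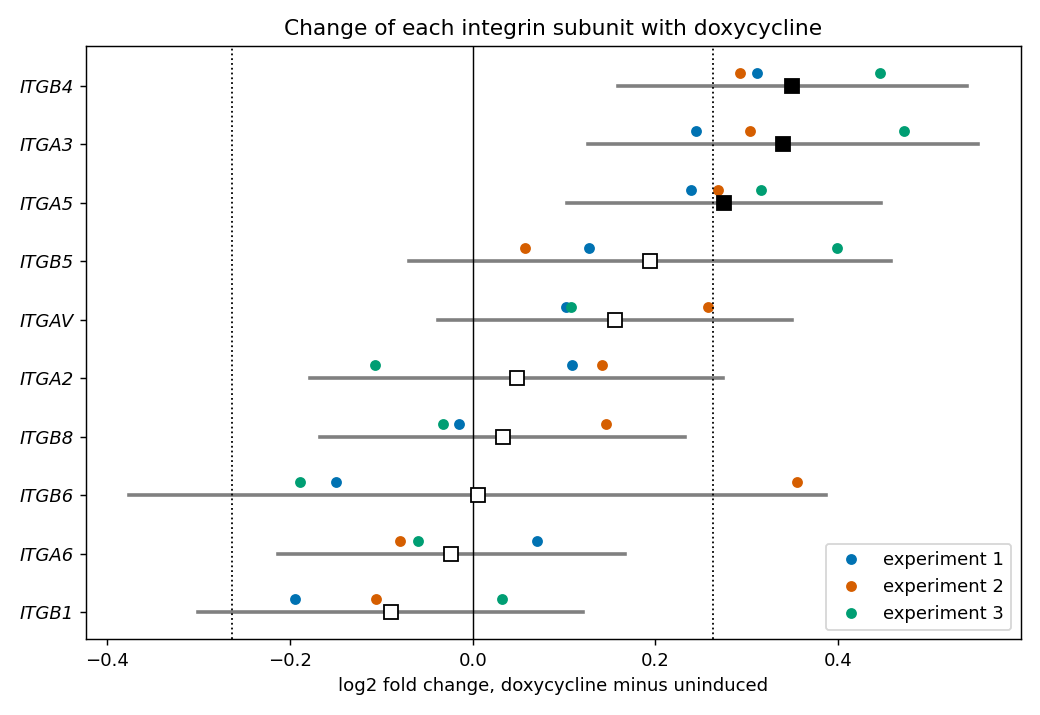
Log2 fold change of each subunit (x axis, squares, filled where past the study's limits) with its 95% confidence interval from limma (grey lines) and the difference in each experiment (coloured points). Dotted lines mark 1.2-fold in either direction; the filled squares of ITGB4, ITGA3 and ITGA5 lie at 0.35, 0.34 and 0.27, and only their intervals exclude 0.

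Taken over the family, 8 of the 10 subunits had a log2 fold change above 0, against 50.5% of all probe sets. The median was 0.10, beside 0.0017 over all probe sets, and the range was -0.09 to 0.35. Among the 10, 5 were raised in all 3 experiments (ITGA3, ITGA5, ITGAV, ITGB4 and ITGB5) and 0 were lowered in all of them, where 18.9% of all probe sets were raised and 17.6% lowered throughout. The groups did not overlap for 3 of 10 subunits, beside 16.6% of all probe sets. Alpha and beta subunits were alike in direction, with 4 of 5 above 0 in each class, and their medians were 0.16 and 0.03. The median absolute change of the subunits, 0.12, was close to that of all probe sets, 0.10. The subunits had a median log2 level of 8.28, beside 5.65 over all probe sets, so these shares include many dimmer probe sets. Without the 25% of probe sets of lowest level, 6.92% of the rest passed the study's limits in limma with the block. These are counts over a short list of genes, which was chosen with earlier results of these data known and was not tested as a set.

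Some subunits also differed between the experiments. Of the 10, 7 had their highest uninduced level in experiment 3 and 6 their highest doxycycline level there, against 33.8% and 35% of all probe sets. ITGA3, ITGA5, ITGAV and ITGB4 were highest in experiment 3 in both groups, which held for 15.3% of all probe sets. Whether same-numbered arrays of both groups share an effect of the experiment was not settled by the values, and the block decided 2 of the 3 calls. In limma without the block, ITGB4 had an unadjusted p of 0.018; the fold changes cannot differ between the fits with and without it. In limma with any single experiment left out, no subunit passed the study's limits (0 of 10). Of all probe sets, 5.08%, 3.76% and 3.73% passed them without experiments 1, 2 and 3. In these fits the log2 fold changes stayed between 0.30 and 0.38 for ITGB4, 0.27 and 0.39 for ITGA3 and 0.25 and 0.29 for ITGA5.

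**Figure D3:**
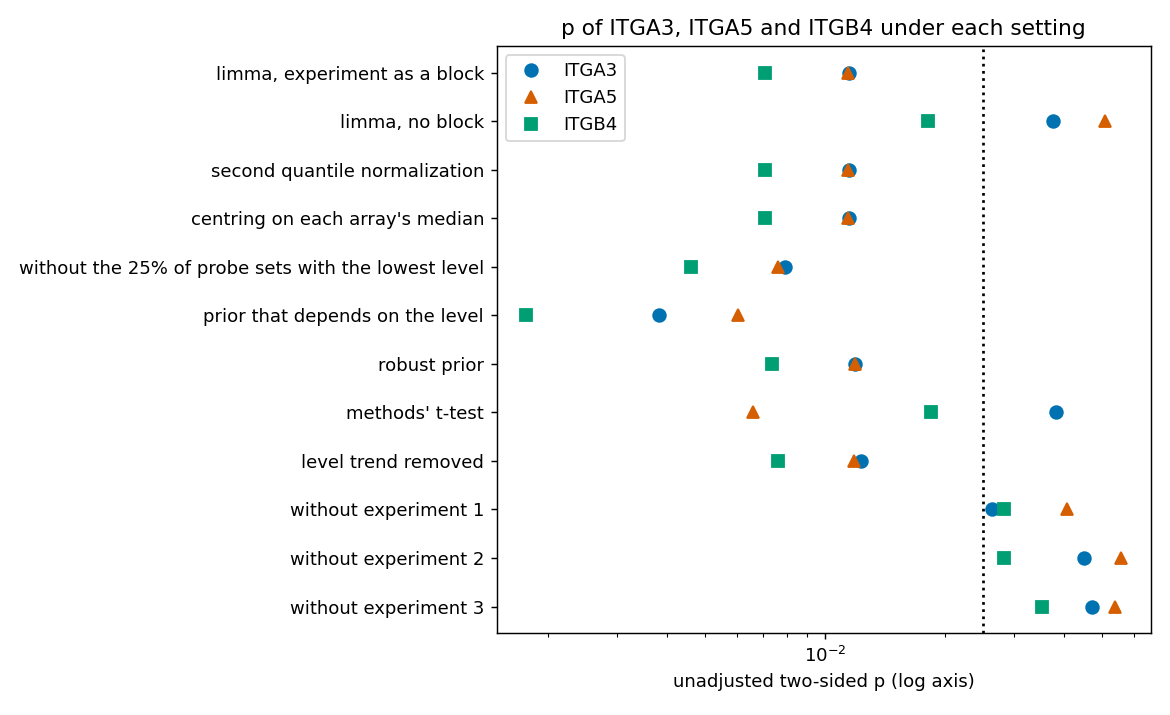
Unadjusted two-sided p (x axis, log scale) of the 3 raised subunits with the experiment as a block and in each of 11 alternatives. The dotted line marks 0.025; ITGB4 crosses it only when an experiment is left out, at p between 0.028 and 0.035. ITGA3 and ITGA5 cross it without the block as well, and ITGA3 also in the methods' t-test.

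Since integrins reach the surface as pairs, the changes of the partners were set side by side for the 9 known pairs that the 10 subunits can form. Of these, 5 share ITGB1, 4 share ITGAV and 2 share ITGA6, so the pairs are not independent. In 5 of the 9 the alpha-minus-beta difference of the log2 changes had the same sign in all 3 experiments.

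For the hemidesmosome pair, ITGA6 changed by 0.37 less than ITGB4 on the log2 scale. The difference was -0.24, -0.37 and -0.51 in experiments 1, 2 and 3 (SD 0.13). On these arrays the ratio of ITGB4 to ITGA6 signal was thus 1.30 times as high with doxycycline as without it.

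For the fibronectin receptor pair, the change of ITGA5 exceeded that of ITGB1 by 0.43, 0.38 and 0.28 in the 3 experiments. The mean was 0.36 (SD 0.076). For ITGA3 and ITGB1 the difference was 0.44, 0.41 and 0.44 (mean 0.43, SD 0.018). The difference in change between ITGAV and ITGB1 was 0.25 on average (SD 0.15), and that between ITGAV and ITGB8 was 0.12 (SD 0.016). In each of these 4 pairs the alpha subunit had the higher change in every experiment.

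The other 4 pairs changed sign between experiments. ITGAV and ITGB5 had nearly the same mean change, with differences of -0.03, 0.20 and -0.29. The mean differences were 0.14 for ITGA2 and ITGB1 (SD 0.24), 0.07 for ITGA6 and ITGB1 (SD 0.18) and 0.15 for ITGAV and ITGB6 (SD 0.22). An exact sign-flip permutation test on 3 experiments cannot give a two-sided p below 0.25 whatever the values, so it says nothing about these differences, which are given as a description. Unequal changes of 2 probe sets do not say how much of either transcript or protein was present.

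**Figure D4:**
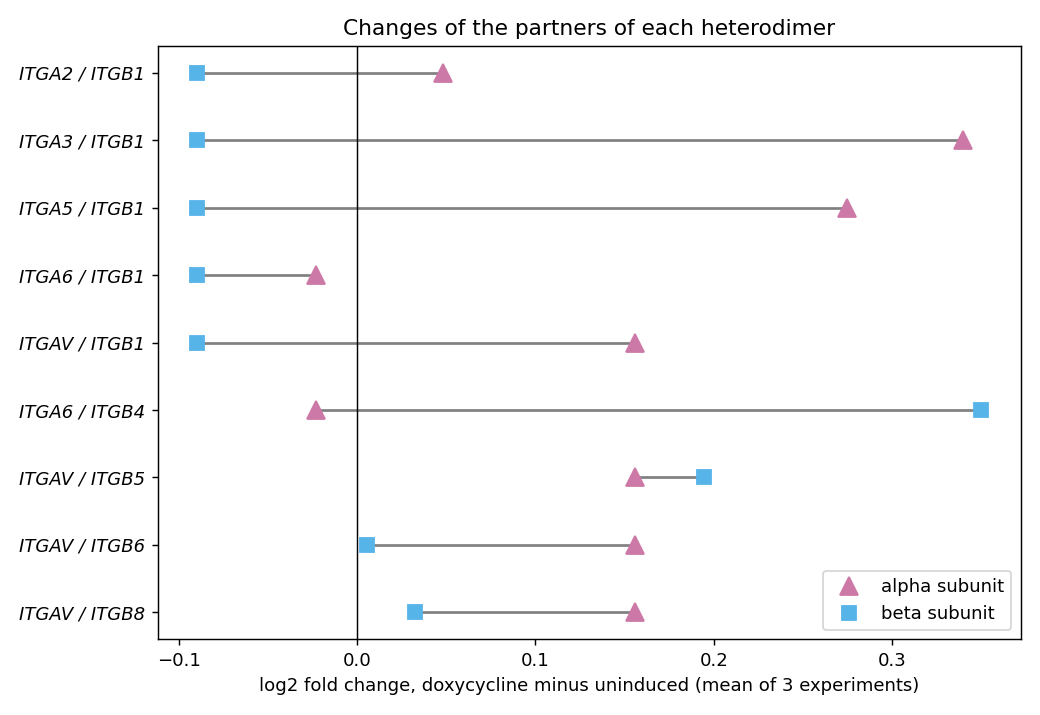
Mean log2 fold change (x axis) of the alpha subunit (triangles) and the beta subunit (squares) of the 9 pairs, joined by a line. The longest lines belong to ITGA3 with ITGB1, at 0.34 and -0.09, and to ITGA6 with ITGB4, at -0.02 and 0.35.

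The promoters of the subunits differ in base composition. RefSeq start sites on GRCh38.p14 gave 13 windows of 250 bases upstream for 8 of the 10 genes; ITGA3 and ITGB4 had no entry. The windows had a median GC content of 70.0% and a median of 18.0 CpG dinucleotides, beside 58.0% and 11.0 over 35116 windows. Of the raised subunits with an entry, ITGA5 is shown, whose GC content equals the median of the 13 windows. ITGB6, which gave the least steady changes and has the lowest GC content of the 13, is shown beside it. Both are written 5′ to 3′ on the gene's strand, and capitals mark GC boxes (GGGCGG on either strand), the letters of the classical SP1 motif. The ITGA5 window is chr12:54419267-54419516 on the minus strand, and the ITGB6 window is chr2:160200273-160200522, also on the minus strand.
ITGA5: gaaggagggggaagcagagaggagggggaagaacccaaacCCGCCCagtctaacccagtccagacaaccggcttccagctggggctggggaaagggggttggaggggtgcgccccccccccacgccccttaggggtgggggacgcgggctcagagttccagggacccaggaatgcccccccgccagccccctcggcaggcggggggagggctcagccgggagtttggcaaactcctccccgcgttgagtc
ITGB6: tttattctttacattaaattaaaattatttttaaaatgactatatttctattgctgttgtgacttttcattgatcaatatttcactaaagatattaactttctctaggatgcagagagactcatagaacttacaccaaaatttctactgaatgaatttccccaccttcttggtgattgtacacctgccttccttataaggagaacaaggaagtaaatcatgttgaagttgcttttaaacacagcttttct

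The ITGA5 window holds 70.0% G and C, 12 CpG dinucleotides and 1 GC box. The ITGB6 window holds 30.0% G and C, 0 CpG dinucleotides and 0 GC boxes, and 6.1% of all windows likewise lacked CpG. A GC box was found in at least 1 window of 6 of the 8 genes and in 7 of the 13 windows, beside 42.6% of all windows. The TATA box letters TATAAA were in 2 of the 13 windows, 1 of ITGA6 and 1 of ITGB1, beside 10.7%. The letters of the TCF/LEF motif ATCAAAG, bound by the partners of beta-catenin, were in 0 of the 13 windows, beside 2.3%, and those of the AP-1 motif TGANTCA in 0, beside 6.6%. The CCAAT box letters CCAAT were in 1 of the 13 windows, that of ITGB8, beside 32.0%. Both strands were searched for each motif. ITGAV, ITGB1, ITGB5 and ITGA6 have more than 1 window, and which start sites SW480 cells use was not measured.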

How the data were processed

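RNA from 3 doxycycline and 3 uninduced SW480 cultures was measured on exon arrays (Affymetrix Human Exon 1.0 ST), 1 array per culture. The deposited values are log2 expression levels of 26445 probe sets with Ensembl gene names. The submitters' processing notes name RMA; its version, the build and the annotation are not given in the sources used here. The log2 levels as deposited shared 1 distribution on all arrays, which can hide a global shift, and were not scaled again. There were 0 missing values.

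Arrays were grouped by the labels. All probe sets were fitted together in limma 3.58.1 (R 4.3.3) (functions lmFit and eBayes), blocking on the experiment because the study's own test is paired. Tests were two-sided, with Benjamini-Hochberg adjustment across the whole table. A call needed p under 0.025 before adjustment and at least a 1.2-fold change. The fit was tested on simulated data in which both arrays of an experiment shared an effect. That test therefore says nothing about whether the numbers pair the real arrays. The subunits and lists were chosen with earlier results of these data known. All 10 subunits are named, by symbols that came with the list of identifiers and could not be checked against a table; the pathway and marker lists could not be matched to identifiers. Alternatives concerned the block, scaling, dim probe sets, the variance prior, the test, the fold minimum, the level trend and each experiment. Arrays carry no counts, so their number limits the precision.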

Additional observations from a re-analysis of the deposited data

How the results depend on the processing

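The number of subunits past the study's limits was 3 with the experiments as a block. It was 1 without the replicate block (ITGB4) and 0 with a fold change minimum of 1.5. It was also 0 with any 1 experiment left out, each such fit having fewer arrays. Of all probe sets, 5.08%, 3.76% and 3.73% passed the limits without experiments 1, 2 and 3, beside 5.83% with all experiments. The number of subunits was 3 again (ITGA3, ITGA5 and ITGB4) without the 25% of probe sets of lowest level and with the level trend removed. It was also 3 with a prior that depends on the level, with a robust prior and with no fold minimum. The methods' t-test called 2 (ITGA5 and ITGB4). Quantile normalization or median centring made no difference to any call, as the arrays already shared 1 distribution. No alternative placed a subunit under an adjusted p of 0.05; the lowest was 0.16, for ITGB4, with the prior that depends on the level. Without experiment 2 the sign reversed for ITGA6, ITGB6 and ITGB8, none of them called; with 1 experiment left out, the log2 fold change ranged from -0.07 to 0.005 for ITGA6, from -0.17 to 0.10 for ITGB6 and from -0.024 to 0.066 for ITGB8. The other 7 subunits kept their sign in all 11 alternatives. The median over the subunits stayed between 0.055 (without experiment 2) and 0.13.

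The deviations of same-numbered arrays from their group means correlated with an r of 0.039, 0.049 and 0.13. Between arrays of different number, r ran from -0.092 to 0.044, a range that overlaps the same-numbered values. All of these correlations are small, so the numbers are not shown to pair the arrays. The block follows the study's paired test. The planned counts for the adhesion pathway lists were not run, because no table paired their symbols with identifiers.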
